A study of Mus musculus with 4 samples.

Results

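The Serpina genes encode clade A serpins, plasma proteins made mainly by hepatocytes. An inhibitory serpin offers a protease an exposed loop, the reactive centre loop, as bait, and traps the enzyme after the loop is cut. Some members have lost this activity and carry hormones instead. The human genome holds a single alpha-1-antitrypsin gene, whose product protects the lung from neutrophil elastase, while the mouse carries a cluster of Serpina1 copies that differ in the bait loop.

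10 genes were taken by symbol from the 33639 genes of the deposited tables: the 5 alpha-1-antitrypsin genes Serpina1a, Serpina1b, Serpina1c, Serpina1d and Serpina1e, the contrapsin-type inhibitor genes Serpina3k and Serpina3m, the corticosteroid-binding globulin gene Serpina6, the thyroxine-binding globulin gene Serpina7, and Serpina12, which encodes vaspin. All 10 were found and all 10 passed the filter of a mean of at least 1 CPM over the libraries (counts scaled to a library total of 1000000), as did 11743 genes in all. RNA was sequenced from the liver of 1 male mouse of each of 4 genotypes: a global Cyp27a1 knockout (KO), a global Cyp3a KO, a global double knockout of both (DKO), and wild type (WT). The labels name the second deleted gene by the human symbol Cyp3a4, and give neither age nor strain. All mice ate standard chow and had no treatment. The series sets each knockout against WT, and the DKO is set here against each single knockout as well.

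Each genotype has 1 library, so nothing below is checked against replicates, no p-value is given, and each statement compares these 4 livers rather than the genotypes. Library totals were 49980012 counts in the Cyp27a1 KO liver, 50378101 in the Cyp3a KO liver, 50280651 in the DKO and 49745860 in WT. Cyp27a1 stood at 57.6 CPM in the Cyp27a1 KO and 65.3 CPM in the DKO, against 727 CPM in the Cyp3a KO liver and 746 CPM in WT. Cyp3a11, the main hepatic Cyp3a gene, stood at 0.160 CPM in the Cyp3a KO liver and 4.76 CPM in the DKO, against 23706 CPM in the Cyp27a1 KO and 8742 CPM in WT. Hepatocyte markers were abundant throughout, with 7 markers summing to 62244 CPM in the Cyp27a1 KO liver, 67278 CPM in the Cyp3a KO liver and 90362 CPM in the DKO, against 101703 CPM in WT. Most of each sum was Alb, and the other 6 markers summed to 24290.3 CPM in the Cyp27a1 KO liver, 26934 CPM in the Cyp3a KO liver and 24641 CPM in the DKO, against 29204 CPM in WT. Summed markers ran from 165 to 400.0 CPM for Kupffer cells, 155 to 198 CPM for endothelium, 157 to 209 CPM for stellate cells and 31.3 to 43.1 CPM for cholangiocytes, while neutrophil markers stayed at or below 0.619 CPM and exocrine pancreas markers at or below 0.643 CPM. The highest Kupffer cell sum, 400.0 CPM, was that of the DKO, against 246 CPM in WT, and the Cyp3a KO had the lowest sum. Of 8 Kupffer markers, 2 were called higher in the DKO than in WT by counts and 4 on deposited TPM, where 6% and 11.5% of all genes were called higher. Against the Cyp3a KO 6 of 8 were higher by counts and 7 on deposited TPM, where 4.02% and 6.64% of all genes were called higher. The part of these cells in the Serpina values was not tested, and in whole liver fewer cells of a type and less RNA per cell cannot be told apart.

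The 5 Serpina1 genes lie side by side on the minus strand of chromosome 12 (GENCODE M21, mm10), from 103728156, where the annotated Serpina1b begins, to 103958975, where Serpina1e ends. The annotated Serpina1b runs across Serpina1d, which spans 103763594 to 103773592. The coding sequences of Serpina1b, Serpina1c, Serpina1d and Serpina1e are 96.3% to 96.7% identical between pairs. Serpina1a is 91.5% to 93.3% identical to the other 4, with gaps counted as differences, since its reading frame is 1311 bases long against 1242. The stretch that codes for the reactive centre loop is shown because the copies differ there in the bait that they offer to proteases. The 81 bases below come from GENCODE M21 transcripts, 5′ to 3′, and capitals mark the 18 positions at which the 5 genes are not all alike.
Serpina1a: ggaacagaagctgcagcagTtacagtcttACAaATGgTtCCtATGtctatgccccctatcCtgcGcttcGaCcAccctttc
Serpina1b: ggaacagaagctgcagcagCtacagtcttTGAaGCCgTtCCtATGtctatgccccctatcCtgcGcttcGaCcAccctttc
Serpina1c: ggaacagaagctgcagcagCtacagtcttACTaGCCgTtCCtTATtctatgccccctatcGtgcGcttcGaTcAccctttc
Serpina1d: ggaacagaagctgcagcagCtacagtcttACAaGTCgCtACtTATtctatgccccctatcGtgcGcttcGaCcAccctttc
Serpina1e: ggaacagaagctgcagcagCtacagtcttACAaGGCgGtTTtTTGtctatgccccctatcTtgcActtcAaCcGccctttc

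Against Serpina1e, this stretch differed at 10 bases in Serpina1d, 11 in Serpina1b and 12 each in Serpina1a and Serpina1c. Of the 31-base words in one reference transcript of each gene, the share found in no other gene's transcripts was 24.2% for Serpina1a, 35.6% for Serpina1b, 17.8% for Serpina1c, 35.3% for Serpina1d and 44.7% for Serpina1e. It was 75.8% for Serpina3k, 65.0% for Serpina3m and 100% for Serpina6, Serpina7 and Serpina12. The split of counts among the Serpina1 genes is therefore uncertain, least so for Serpina1e, and the sum over the 5 is given beside the single values. Serpina3k and Serpina3m share an annotated start at 104338486 and 91.0% of their coding bases, so their split is uncertain as well.

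Serpina1e, a mouse alpha-1-antitrypsin gene (chromosome 12, 103946931 to 103958975), nearly disappeared from the DKO liver. It stood at 5437 CPM in the Cyp27a1 KO liver, 6080.0 CPM in the Cyp3a KO liver and 90.4 CPM in the DKO, against 10558 CPM in WT. The WT library was the highest, the single knockouts lay at a little over its midpoint and the DKO stood far below all others. In the DKO the level was 117-fold lower than in WT (exact 95% interval of the count ratio 114 to 120.1, which like all intervals here covers counting error only). On the log2 scale of CPM plus a pseudocount of 0.5 that is -6.86, while the Cyp27a1 KO had -0.96 and the Cyp3a KO -0.80, both just inside the 2-fold rule. A gene is called here when its log2 fold is at least 2-fold in size, it passed the filter and the counting interval excludes a ratio of 1. The DKO was also 60.1-fold below the Cyp27a1 KO (58.5 to 61.9) and 67.2-fold below the Cyp3a KO (65.4 to 69.2).

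Serpina1c (chromosome 12, 103894926 to 103904887), its neighbour in the cluster, moved the same way to a smaller extent. Its level was 6038 CPM in the Cyp27a1 KO liver, 7049 CPM in the Cyp3a KO liver and 2974 CPM in the DKO, against 9126 CPM in WT. The DKO was 3.07-fold lower than WT (3.05 to 3.09), the second largest difference in the Serpina1 group. Reads shared with Serpina1e could enter this value, since Serpina1c has the fewest words of its own, and their part was not tested.

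The other 3 copies were called in none of the 5 comparisons. Serpina1a stood at 4529 CPM in the Cyp27a1 KO liver, 4349 CPM in the Cyp3a KO liver and 4017 CPM in the DKO, against 5589 CPM in WT. Serpina1b stood at 6319 CPM in the Cyp27a1 KO liver, 6183 CPM in the Cyp3a KO liver and 5869 CPM in the DKO, against 6460.0 CPM in WT. Serpina1d stood at 3725 CPM in the Cyp27a1 KO liver, 3822 CPM in the Cyp3a KO liver and 3001 CPM in the DKO, against 4381 CPM in WT. By scaled counts the WT library was the highest and the DKO the lowest for each of the 3. The log2 folds of the DKO over WT were -0.48 for Serpina1a, -0.14 for Serpina1b and -0.55 for Serpina1d, of which that of Serpina1b turned to 0.06 with library-total scaling and to 0.20 on deposited TPM. In deposited TPM Serpina1b was highest in the DKO, at 7317 TPM against 6373 TPM in WT, so the order of its libraries depends on the scaling.

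**Figure D1:**
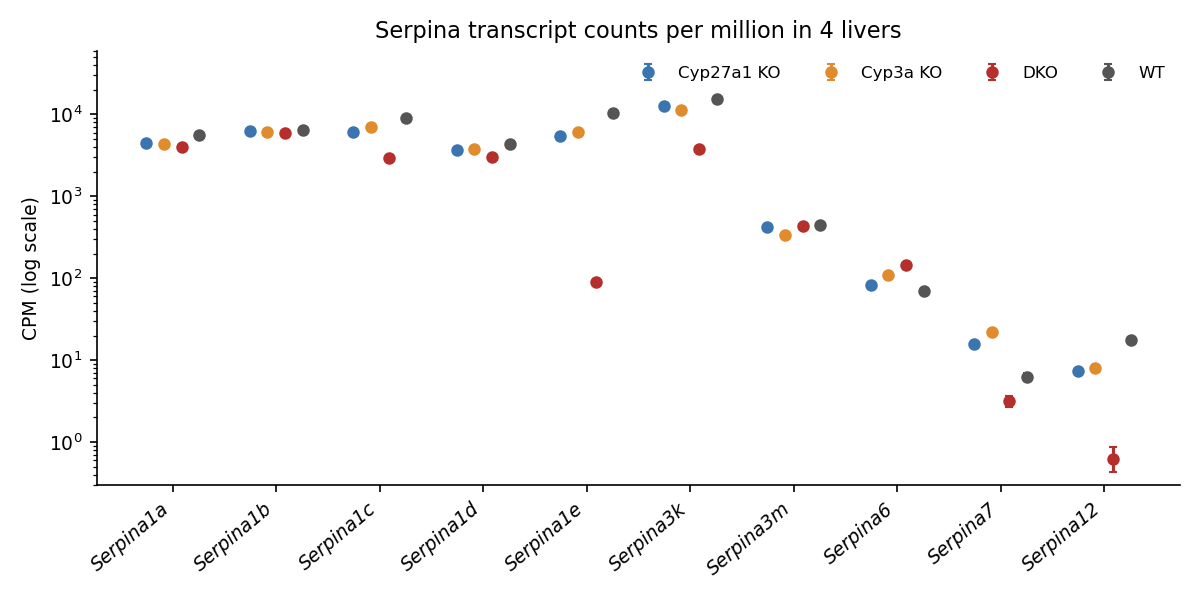
CPM of the 10 Serpina genes (log axis) in the Cyp27a1 KO, Cyp3a KO, DKO and WT livers, 1 library each; bars are exact 95% Poisson intervals of the count and are hidden by most points. The DKO point of Serpina1e, at 90.4 CPM, stands apart from 5437 to 10558 CPM in the other libraries, while Serpina1b lies between 5869 and 6460.0 CPM in all 4.

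Summed over the 5 copies, Serpina1 counts came to 26047 CPM in the Cyp27a1 KO liver, 27483 CPM in the Cyp3a KO liver and 15952 CPM in the DKO, against 36114 CPM in WT. The sum in the DKO was 2.26-fold lower than in WT (2.26 to 2.27), with a log2 fold of -1.18, while on deposited TPM the value was -0.81, inside the 2-fold rule. The sum over Serpina1c and Serpina1e was 3065 CPM in the DKO against 19684 CPM in WT, 6.42-fold lower (6.39 to 6.46). The sum over Serpina1a, Serpina1b and Serpina1d was 12887 CPM in the DKO against 16429.7 CPM in WT, 1.27-fold lower (1.27 to 1.28), and the deposited TPM of the same 3 genes were 16339 in the DKO and 16262 in WT, so the sign of that difference depends on the scaling.

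The make-up of the Serpina1 counts does not depend on the scaling between libraries. Serpina1e supplied 20.9% of them in the Cyp27a1 KO liver (exact binomial 95% interval 20.8 to 20.9), 22.1% in the Cyp3a KO liver (22.1 to 22.2) and 0.567% in the DKO (0.551 to 0.583), against 29.2% in WT (29.2 to 29.3). It was the largest contributor in WT and the smallest in the DKO. Serpina1b supplied 24.3% in the Cyp27a1 KO liver, 22.5% in the Cyp3a KO liver and 36.8% in the DKO, against 17.9% in WT. The share of Serpina1a was 17.4% in the Cyp27a1 KO liver, 15.8% in the Cyp3a KO liver and 25.2% in the DKO, against 15.5% in WT. Serpina1d had 18.8% in the DKO against 12.1% in WT, and Serpina1c had 18.6% in the DKO against 25.3% in WT. A share can be higher because another gene's counts are lower, and the levels of Serpina1a, Serpina1b and Serpina1d above were not higher in the DKO than in WT by scaled counts.

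**Figure D2:**
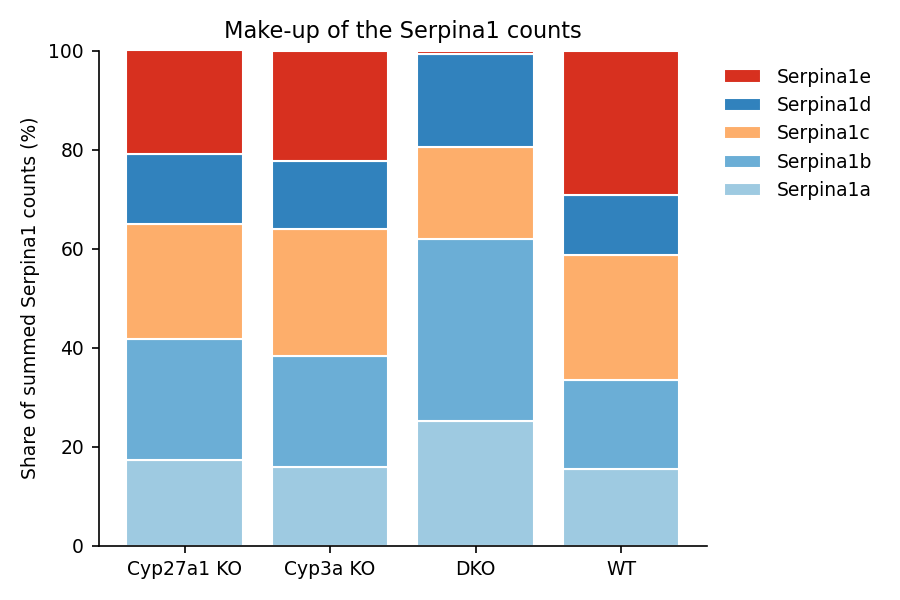
Share of each gene in the summed Serpina1 counts (%), 1 bar per liver library (Cyp27a1 KO, Cyp3a KO, DKO, WT). Serpina1e, at the top of each bar, takes 20.9%, 22.1%, 0.567% and 29.2% of the sum in that order.

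The promoters of the 5 copies are shown because Serpina1c and Serpina1e were called lower in the DKO than in WT and the other 3 copies were not. The windows of 106 bases below are from RefSeq (GRCm38.p6), on the minus strand, 5′ to 3′, and capitals mark the 15 positions at which the 5 are not all alike. They lie at chr12:103863595-103863700 (Serpina1a), chr12:103738170-103738275 (Serpina1b), chr12:103904932-103905037 (Serpina1c), chr12:103773604-103773709 (Serpina1d) and chr12:103956930-103957035 (Serpina1e).
Serpina1a: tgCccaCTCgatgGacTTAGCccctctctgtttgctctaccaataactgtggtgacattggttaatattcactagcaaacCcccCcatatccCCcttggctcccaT
Serpina1b: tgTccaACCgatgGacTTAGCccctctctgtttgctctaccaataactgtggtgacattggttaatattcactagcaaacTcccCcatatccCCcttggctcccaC
Serpina1c: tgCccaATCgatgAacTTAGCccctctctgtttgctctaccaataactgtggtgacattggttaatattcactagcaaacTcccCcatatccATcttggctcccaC
Serpina1d: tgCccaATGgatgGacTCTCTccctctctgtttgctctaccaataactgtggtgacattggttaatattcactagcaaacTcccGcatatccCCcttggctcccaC
Serpina1e: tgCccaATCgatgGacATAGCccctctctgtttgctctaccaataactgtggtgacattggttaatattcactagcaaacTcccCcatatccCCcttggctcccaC

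Within these windows Serpina1e differed from Serpina1b at 3 bases, from Serpina1a at 4, from Serpina1c at 4 and from Serpina1d at 7. Counted from 1 at the 5′ end of the window, A17T was the substitution from Serpina1e found in each of the other 4 copies, and Serpina1c alone carried G14A, C93A and C94T. The windows were placed around the letters GTTAAT in the RefSeq promoter sequences, so these letters line up in every window by construction. The window of Serpina1e begins 138 bases before its RefSeq start, against 76 to 87 bases in the other 4. The GENCODE M21 spans of Serpina1e and Serpina1b reach further upstream than these RefSeq starts, so that both windows lie inside the spans given for the 2 genes. The letters TTCNNNGAA, the palindrome bound by STAT factors, which reads the same on both strands, were in 8.3% of 32851 RefSeq promoter windows of 300 bases (250 before to 50 after an annotated start). They were in the windows of 0 of the 7 members for which one was used, which says only that these letters are not there.

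Serpina3k (chromosome 12, 104338486 to 104346144), which encodes the trypsin inhibitor contrapsin, was likewise lowest in the DKO. It stood at 12579 CPM in the Cyp27a1 KO liver, 11329 CPM in the Cyp3a KO liver and 3801 CPM in the DKO, against 15657 CPM in WT. The single knockouts lay below WT, and the DKO lay 4.12-fold below WT (4.10 to 4.14), 3.31-fold below the Cyp27a1 KO (3.29 to 3.33) and 2.98-fold below the Cyp3a KO (2.97 to 3). Serpina3m, a related inhibitor gene in the same subcluster, stood at 417 CPM in the Cyp27a1 KO liver, 337 CPM in the Cyp3a KO liver and 439 CPM in the DKO, against 452 CPM in WT. Its DKO level was next to that of WT, with a log2 fold of -0.04 that turned to 0.16 with library-total scaling and 0.32 on deposited TPM.

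Serpina12 (chromosome 12, 104028769 to 104044443) encodes vaspin, an adipokine that inhibits the kallikrein KLK7 in human. It had 366 counts in the Cyp27a1 KO liver, 399 in the Cyp3a KO liver and 34 in the DKO, against 827 in WT, which is 7.35, 7.97 and 0.628 CPM against 17.7 CPM. WT was the highest library, the single knockouts lay close together and the DKO was the lowest. The gene was 28.3-fold lower in the DKO than in WT (20.1 to 41.1), 2.41-fold lower in the Cyp27a1 KO (2.13 to 2.74) and 2.23-fold lower in the Cyp3a KO (1.97 to 2.51). The log2 folds of the single knockouts, -1.22 and -1.11, became -0.97 and -0.95 on deposited TPM plus 0.5, just inside the 2-fold rule. The deposited values were 2.70 TPM in the Cyp27a1 KO and 2.75 TPM in the Cyp3a KO against 5.77 TPM in WT. Without the pseudocount both lay more than 2-fold below WT. The log2 fold of the DKO over WT was -4.02 by counts and -3.04 on deposited TPM, where the same pseudocount of 0.5 was added to 0.262 TPM in the DKO and 5.77 TPM in WT. By counts it was added to 0.628 CPM in the DKO, while the 28.3-fold ratio holds no pseudocount.

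The hormone carrier genes differed from each other. Serpina6 (chromosome 12, 103646630 to 103657212), corticosteroid-binding globulin, stood at 81.8 CPM in the Cyp27a1 KO liver, 110.0 CPM in the Cyp3a KO liver and 147 CPM in the DKO, against 70.0 CPM in WT. Here WT was the lowest library and the DKO the highest, 2.09-fold above WT (2.01 to 2.18), close to the limit of the rule. The DKO was 1.79-fold above the Cyp27a1 KO (1.73 to 1.86), which was not called by counts and was called on deposited TPM, with a log2 fold of 1.03.

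Serpina7 (chromosome X, 139079257 to 139085236), thyroxine-binding globulin, was high in both single knockouts and low in the DKO. It had 787 counts in the Cyp27a1 KO liver, 1092 in the Cyp3a KO liver and 171 in the DKO, against 293 in WT, or 15.8, 21.8 and 3.16 CPM against 6.28 CPM. Relative to WT it was 2.51-fold higher in the Cyp27a1 KO (2.20 to 2.89) and 3.47-fold higher in the Cyp3a KO (3.05 to 3.96), while the DKO had a log2 fold of -0.89, inside the rule. The DKO was 5.01-fold below the Cyp27a1 KO (4.24 to 5.94) and 6.91-fold below the Cyp3a KO (5.88 to 8.17). No other member was called in opposite directions in different comparisons.

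Counted over the 10 members, the DKO against WT had 4 called lower (Serpina1c, Serpina1e, Serpina3k and Serpina12) and 1 called higher (Serpina6), where 10% of all 11743 genes were called, 4.02% lower and 6% higher. The median log2 fold was -0.72 over the members and -0.01 over all genes. In the Cyp27a1 KO against WT, 1 member was called lower (Serpina12) and 1 higher (Serpina7), with 3.81% of all genes called, 1.36% lower and 2.44% higher, and the medians were -0.27 and 0.00. In the Cyp3a KO against WT the same 2 genes were called in the same directions, with 4.43% of all genes called, 1.86% lower and 2.56% higher, and the medians were -0.37 and 0.01. These 3 comparisons share the WT library. Against either single knockout the DKO had 5 members lower (Serpina1c, Serpina1e, Serpina3k, Serpina7 and Serpina12) and 0 higher, where 5.42% of all genes were called against the Cyp27a1 KO, 2.59% lower and 2.84% higher, and 6.72% against the Cyp3a KO, 2.70% lower and 4.02% higher. The members were chosen with earlier results of these data known, so these counts describe the list and single nothing out about it.

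The members also differed in how far the DKO lay from the sum of the single-knockout folds on the log2 scale. For Serpina1e the single folds summed to -1.75, and the departure of the DKO from that sum was -5.11. The departure was -3.87 for Serpina7, -1.69 for Serpina12, -1.26 for Serpina3k and -0.65 for Serpina1c. That of Serpina12, which had 34 counts in the DKO, depended on the pseudocount and the scale, at -2.40 with no pseudocount and -1.12 on deposited TPM plus 0.5. The departure lay between -0.11 and 0.50 for the other 5 members. These departures are given without an interval, since 1 liver per genotype gives no measure of how far individual mice vary.

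Per transcript length, in the deposited TPM, the order of the members differed between the DKO and the other livers. In WT the order began with Serpina1e at 10311 TPM, Serpina3k at 9564 TPM and Serpina1c at 8913 TPM, and Serpina1e was the gene of rank 13 among all genes. In both single knockouts Serpina3k led, at 8679 TPM in the Cyp27a1 KO and 7339.8 TPM in the Cyp3a KO, where Serpina1c followed closely at 7303 TPM. In the DKO Serpina1b led at 7317 TPM, ahead of Serpina1a at 5364 TPM, and Serpina1e came to 103 TPM, below Serpina6 at 152 TPM and at rank 1113 among all genes. Serpina1b held ranks 19 to 24 among all genes in the 4 libraries. Serpina7 and Serpina12 were the lowest members in every library, at most 21.1 TPM and 5.77 TPM. The 5 Serpina1 genes together made up 2.89% of all TPM in the Cyp27a1 KO liver, 2.88% in the Cyp3a KO liver and 2.02% in the DKO, against 3.55% in WT. With 1 library each, neighbours in these orders cannot be set against a spread between animals.

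**Figure D3:**
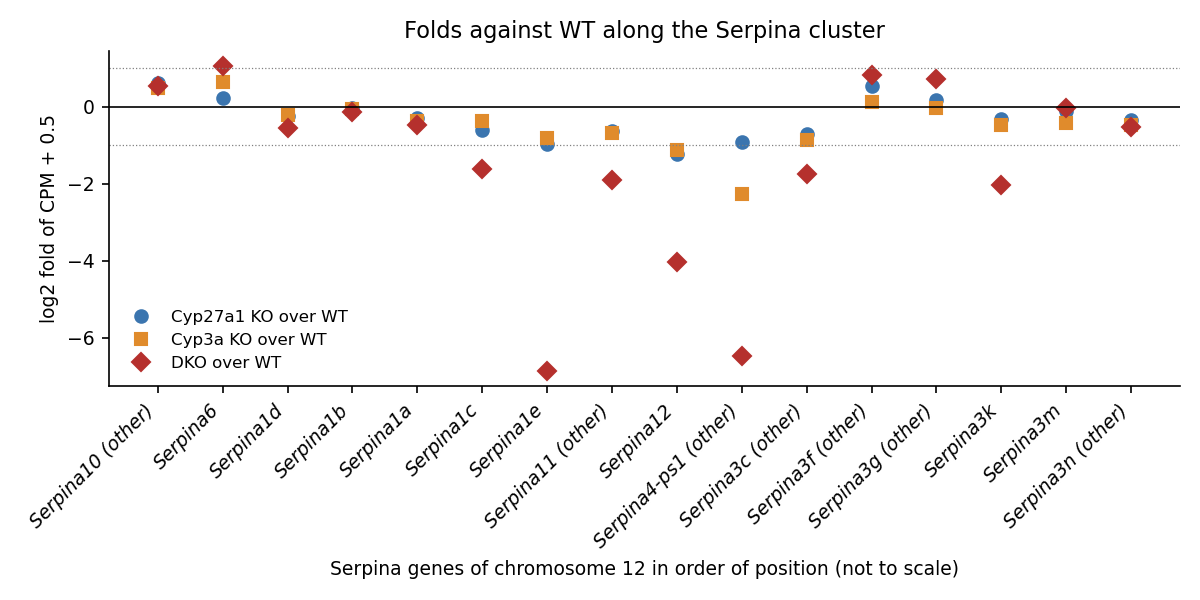
Log2 folds of CPM plus 0.5 against WT in the Cyp27a1 KO, Cyp3a KO and DKO for the 16 chromosome 12 Serpina genes that passed the filter, in order of their annotated ends; dotted lines mark the 2-fold rule and "other" marks genes outside the 10. The DKO folds below the lower line fall on Serpina1c, Serpina1e, Serpina11, Serpina12, Serpina4-ps1, Serpina3c and Serpina3k; Serpina4-ps1 had 0 counts in the DKO, so the height of its point depends on the pseudocount.

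Along the chromosome 12 cluster, only genes that passed the filter were placed in order, so genes below the filter may lie between them. In that order the 6 genes in a row from Serpina1c to Serpina3c were all called lower in the DKO than in WT. Between them and the ends of the order, Serpina3k was the only other gene called lower. Of the 16 further Serpina genes looked up, 7 passed the filter, and 3 of these were called lower and 0 higher in the DKO than in WT, where the shares over all genes were 4.02% and 6%. On deposited TPM 3 were lower and 1 was higher, Serpina3g with a log2 fold of 1.16. Serpina11 stood at 20.8 CPM in the DKO against 79.3 CPM in WT, 3.81-fold lower (3.56 to 4.07). Serpina3c stood at 2.14 CPM in the DKO against 8.41 CPM in WT, 3.93-fold lower (3.18 to 4.87). The pseudogene Serpina4-ps1 had 0 counts in the DKO and 2064 in WT, and was at least 799-fold lower with the floor of 3 counts for the DKO library. In the Cyp3a KO it was 5.03-fold lower (4.53 to 5.58), the 1 call there among these 7 genes, and the Cyp27a1 KO had 0. At the flanks, Serpina10, the protein Z-dependent protease inhibitor gene, had a log2 fold of 0.53 in the DKO, and the acute phase inhibitor gene Serpina3n one of -0.52. Serpina3 genes share sequence, so their single values are uncertain.

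Serpins of other clades were mixed. Of 13 that passed the filter, 2 were called higher and 1 lower in the DKO. In the Cyp27a1 KO 1 was higher and 1 lower, and in the Cyp3a KO 2 each way. Against WT, 6% of all genes were called higher and 4.02% lower in the DKO. These shares were 2.44% and 1.36% in the Cyp27a1 KO, and 2.56% and 1.86% in the Cyp3a KO. Serpine2, protease nexin 1, stood at 1.26 CPM in the DKO against 19.1 CPM in WT, 15.2-fold lower (11.9 to 19.8). It was also lower than WT in the single knockouts, at 2.27 CPM in the Cyp27a1 KO and 4.39 CPM in the Cyp3a KO. These were 8.43-fold (6.93 to 10.3) and 4.35-fold lower (3.75 to 5.07), so WT stood apart from every knockout liver. Serpinb8 was 4.19-fold higher in the DKO (2.93 to 6.14) and Serpinb1a, an inhibitor of neutrophil elastase, 2.35-fold higher (1.77 to 3.16). The antithrombin gene Serpinc1, with 1837 CPM in the DKO against 2099 CPM in WT, was not called.

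Of 11 proteases that serpins meet, 6 passed the filter, 0 were called in any comparison with WT, and their median log2 fold in the DKO was -0.34. F11, coagulation factor XI, came closest in the DKO, with 22.4 CPM against 44.5 CPM in WT and a log2 fold of -0.97. It was called lower in the DKO than in the Cyp27a1 KO, with a log2 fold of -1.02 (-0.66 on deposited TPM, inside the rule), and than in the Cyp3a KO, with -1.86. Over all genes, 2.59% and 2.70% were called lower in these comparisons, in that order. The neutrophil elastase gene Elane, the classic target of alpha-1-antitrypsin, had at most 2 counts in any library. Klk7 had 0 counts in all 4.

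Of 10 genes that act on Serpina1 transcription, 1 was called higher in the Cyp27a1 KO than in WT, where 2.44% of all genes were called higher. This was Onecut1 (HNF6), at 71.1 CPM in the Cyp27a1 KO against 20.4 CPM in WT, 3.48-fold higher (3.24 to 3.75). In the DKO the 10 log2 folds lay between -0.85 and 0.31 with 0 called, and the Cyp3a KO also had 0 called against WT. The shares of all genes called there were 10% in the DKO and 4.43% in the Cyp3a KO. Over all genes, 2.59% were called lower in the DKO than in the Cyp27a1 KO and 2.70% lower than in the Cyp3a KO. Of the 10, Onecut1 (log2 fold -2.63) and Foxa1 (-1.01) were called lower in the DKO than in the Cyp27a1 KO. Foxa1 (-1.19) and Cebpb (-1.15) were called lower than in the Cyp3a KO. On deposited TPM only Onecut1 was called of these. Hnf4a, which encodes a nuclear receptor of hepatocytes, stood at 615 CPM in the DKO against 1042 CPM in WT. The 9 genes for the secretion of alpha-1-antitrypsin had 0 called in each of the 5 comparisons, where 3.81% to 10% of all genes were called. Lman1, the cargo receptor that carries it out of the endoplasmic reticulum, stood at 219 CPM in the DKO against 171 CPM in WT.

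Genes that handle the hormones carried by Serpina6 and Serpina7 are set beside them. Of all genes, 6% were called higher and 4.02% lower in the DKO than in WT. For the Cyp27a1 KO these shares were 2.44% and 1.36%, and for the Cyp3a KO 2.56% and 1.86%. Of 8 glucocorticoid genes, 1 was called higher in the DKO and 0 lower: the steroid 5-beta-reductase gene Akr1d1 was 4.75-fold higher (4.62 to 4.88). In the Cyp27a1 KO 1 was higher and 0 lower, and in the Cyp3a KO 1 was higher and 1 lower, the lower one being Fkbp5, a glucocorticoid-induced chaperone gene, at 139 CPM in the Cyp3a KO against 290.0 CPM in WT. Its log2 fold was -1.06 by counts and -0.89 on deposited TPM, inside the rule. The glucocorticoid receptor gene Nr3c1 stood at 66 CPM in the DKO against 63.0 CPM in WT. Of 9 thyroid hormone genes, 1 was called higher and 2 lower in the DKO, 1 higher in the Cyp27a1 KO and 1 lower in the Cyp3a KO. The call in the Cyp3a KO was the deiodinase gene Dio1, whose log2 fold of -1.09 was -0.93 on deposited TPM, inside the rule. Dio1 was 9.63-fold lower in the DKO than in WT (9.06 to 10.2). Transthyretin, Ttr, another thyroxine carrier that also stands among the hepatocyte markers, was 2.26-fold lower (2.24 to 2.27) by counts and had a log2 fold of -0.81 on deposited TPM, inside the rule. Thrsp, a thyroid hormone-responsive lipogenic gene, was 3.72-fold higher (3.63 to 3.81).

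Since several Serpina genes belong to the acute phase in some species, 19 acute phase genes were counted as well. In the DKO 1 was called higher and 3 lower, with a median log2 fold of -0.51 against -0.01 over all genes. In the Cyp27a1 KO these numbers were 3 and 2, and in the Cyp3a KO 2 and 2. As background, 6% of all genes passed as higher and 4.02% as lower when the DKO was set against WT. The matching shares for the Cyp27a1 KO were 2.44% and 1.36%, and for the Cyp3a KO 2.56% and 1.86%. The orosomucoid gene Orm3 was 11.3-fold higher in the DKO (9.40 to 13.7), and the serum amyloid genes Saa4 and Saa1 were 3.48-fold (3.40 to 3.55) and 3.42-fold lower (3.15 to 3.71). Orm3 stood at 30.0 CPM in the DKO against 2.66 CPM in WT. Orm1, at 384 CPM in the DKO against 679 CPM in WT, was lower and not called. The same held for Orm2, at 6.70 CPM against 13.2 CPM. Genes in the Orm and Saa families share reads with near copies.

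For the called members, the genes with the most similar 3 log2 folds against WT were sought among 2457 genes with a mean of at least 50 CPM, by Euclidean distance. The 3 folds share the WT library, so likeness there carries into all of them. Nearest to Serpina1e were the fatty acid elongase gene Elovl3 at a distance of 0.53, with log2 folds of -0.90, -1.15 and -7.25 in the Cyp27a1 KO, Cyp3a KO and DKO, and the major urinary protein genes Mup14 at 0.86 and Mup12 at 1.09. Nearest to Serpina3k were the carboxylesterase genes Ces3b at 0.15 and Ces1b at 0.29, then Clpx at 0.33. Nearest to Serpina12 were Dio1 at 0.86, Mup9 at 0.89 and the predicted gene Gm21320 at 0.96. Nearest to Serpina7 was Keg1 at 0.26, with log2 folds of 1.42, 1.53 and -0.80, followed by Cyp4a12b at 0.79 and Paqr9 at 0.91. Serpina1c lay nearest to Tns1 at 0.21, Fgf1 at 0.21 and Tymp at 0.22, and Serpina6 nearest to Sgms2 at 0.14, Pla2g6 at 0.21 and Scpep1 at 0.21.

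Counts and deposited TPM gave the members the same order of folds in outline but not the same zero. On deposited TPM the median of all genes in the DKO against WT was 0.33, against -0.01 by scaled counts, and the members' median was -0.37. The members' median minus that of all genes was -0.70 both by counts and on deposited TPM. On deposited TPM, where 11091 genes passed a mean of at least 1 TPM and the 2-fold rule was used without a counting interval, the DKO had 4 members lower and 1 higher than WT, with 14% of all genes called, 2.42% lower and 11.5% higher. The Cyp27a1 KO had 0 lower and 1 higher than WT, with 5.18% of all genes called, 1.16% lower and 4.02% higher, and the Cyp3a KO had 0 lower and 1 higher, with 4.92% called, 1.60% lower and 3.32% higher. The DKO had 4 members lower and 1 higher than the Cyp27a1 KO, with 6.46% of all genes called, 2.23% lower and 4.24% higher, and 4 lower and 0 higher than the Cyp3a KO, with 8.54% called, 1.90% lower and 6.64% higher. Under library totals or deposited TPM, 16 member folds near 0 changed sign, all of them of Serpina1a, Serpina1b or Serpina3m.

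**Figure D4:**
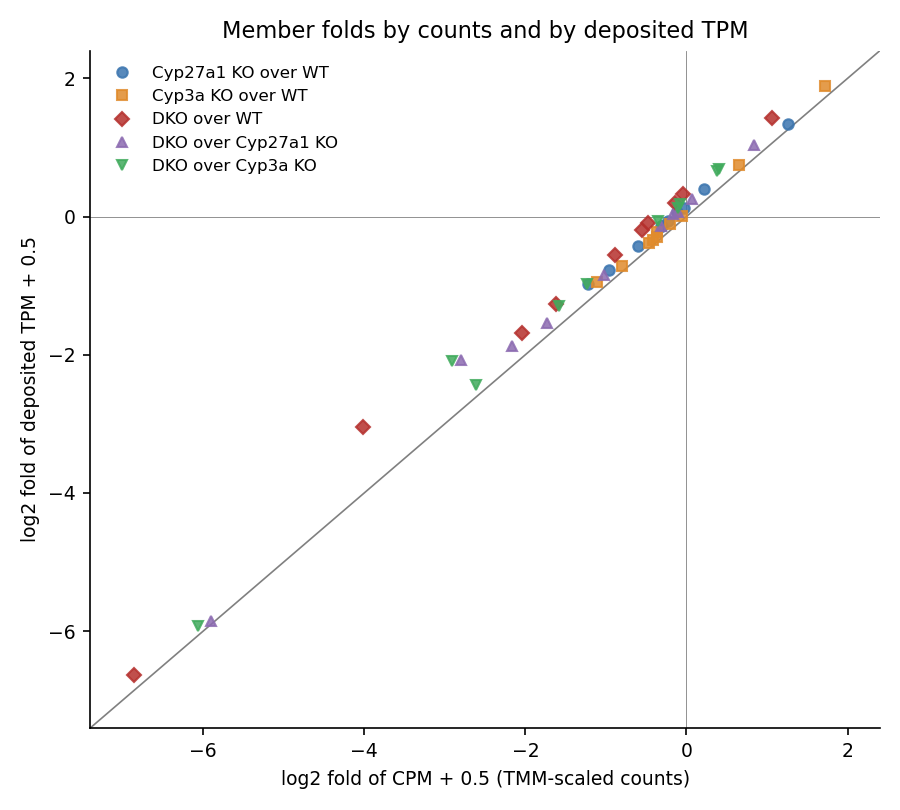
Log2 folds of the 10 members in the 5 comparisons, by scaled counts (horizontal axis, CPM plus 0.5) and by deposited TPM plus 0.5 (vertical axis); the diagonal marks equality. Most points lie above the diagonal, Serpina12 in the DKO over WT farthest from it (-4.02 by counts, -3.04 by TPM). The place of that point depends on the pseudocount of 0.5, added to 0.628 CPM and 0.262 TPM in the DKO. Serpina1e in the DKO over WT lies at the lower left in both (-6.86 and -6.63).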

How the data were processed

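Liver RNA of 1 male mouse per genotype (Cyp27a1 KO, Cyp3a KO, DKO, WT) was made into TruSeq (v2) libraries, per the labels' protocols. Per the submitters' processing notes, the tools were kallisto 0.43.1, HISAT2 2.0.5 and Trimmomatic 0.33 and the build mm10, in roles not stated there. Which annotation was used is not given in the sources used here. As for values, the authors deposited TPM, scaled per length to a fixed total, and estimated counts for each symbol, rounded here to whole numbers. Columns were matched by name, and 1 row without a gene, at 0 counts, was dropped. TMM scaling (edgeR 4.0.16, R 4.3.3) used factors of 0.996, 0.994, 1.08 and 0.937 in the order above; 1 count was worth 0.0185 to 0.0214 CPM. Ratios carry exact conditional binomial (Clopper-Pearson) 95% intervals, levels exact Poisson ones, and 0 counts a floor of 3; reads without molecular identifiers are not independent, so these cover counting error only. No test was run, with 1 library per genotype. The call rule was tried on simulated counts with Poisson error only, which hold no spread between animals.

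Positions came from GENCODE M21 and promoters from RefSeq (GRCm38.p6), found for 7 of the 10 members. Coding sequences, the longest open reading frames of GENCODE M21 transcripts, were aligned with Biopython 1.88. Besides the members, the genes named were those nearest in pattern to each member called against WT and the called members of the other lists with the largest folds in the DKO; others are named for their role and were chosen after their values were seen. The members and lists were chosen with earlier results of these data known. Alternatives were library totals, median-of-ratios scaling (DESeq2 1.42.0), deposited TPM, pseudocounts of 0.1 and 2, a 4-fold rule, a filter at a mean of 5 CPM, none at all, and no counting interval. Computation used Python 3.11.15, numpy 2.4.6, scipy 1.17.1 and pandas 2.3.3.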

Additional observations from a re-analysis of the deposited data

Results flagged for a closer look

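Serpina7 had log2 folds of opposite sign for the same loss on the 2 backgrounds, comparing these 4 livers. For loss of Cyp27a1 its log2 fold was 1.26 in the Cyp27a1 KO over WT and -2.61 in the DKO over the Cyp3a KO. For loss of Cyp3a it was 1.72 in the Cyp3a KO over WT and -2.16 in the DKO over the Cyp27a1 KO. Each of the 4 folds passed the 2-fold rule on scaled counts and on deposited TPM. Both pairs use the same 4 libraries and restate the departure of -3.87 from the summed single-knockout folds, so they are 1 result. The difference between backgrounds was not tested, as there is 1 library per genotype.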

How the results depend on the processing

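No paired analysis was possible because each genotype has 1 library. The log2 fold of the Serpina1 sum, in the order Cyp27a1 KO over WT, Cyp3a KO over WT, DKO over WT, DKO over Cyp27a1 KO and DKO over Cyp3a KO, was -0.47, -0.39, -1.18, -0.71 and -0.78. With library totals it was -0.38, -0.31, -0.98, -0.59 and -0.67, and on deposited TPM -0.30, -0.30, -0.81, -0.52 and -0.51, so the call in the DKO over WT ended under both. With median-of-ratios factors it was -0.47 in the first comparison and -1.16, -0.70 and -0.77 in those of the DKO. These are changes of scale: library totals moved the median of all genes in the DKO over WT to 0.17, and deposited TPM moved it to 0.33.

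On deposited TPM 0 members were lower in either single knockout over WT, as Serpina12 left the rule, and 1 (Serpina6) was higher in the DKO over the Cyp27a1 KO; Serpina1c left the rule in the DKO over the Cyp27a1 KO and over the Cyp3a KO, with log2 folds of -0.84 and -0.97. Library totals ended the call of Serpina1c in the DKO over the Cyp27a1 KO, at -0.91. With a pseudocount of 2, 0 members were lower in the Cyp3a KO over WT. Under a 4-fold rule 0 members were higher and 0 lower in either single knockout over WT, 0 were higher in the DKO over WT, where Serpina1e, Serpina3k and Serpina12 stayed called, and 3 were lower in the DKO over each single knockout.

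Counts over all genes moved as follows. On deposited TPM 446 genes were higher in the Cyp27a1 KO over WT, 1280 higher and 268 lower in the DKO over WT, and 736 higher and 211 lower in the DKO over the Cyp3a KO. Of the genes called in the DKO over WT, 59.9% were higher in the main setting, 73.3% with library totals and 82.7% on deposited TPM. With a pseudocount of 2, 96 were lower in the Cyp27a1 KO over WT, 132 lower in the Cyp3a KO over WT and 311 higher in the DKO over the Cyp3a KO. Under the 4-fold rule the higher and lower genes were 65 and 23 in the Cyp27a1 KO over WT, 51 and 38 in the Cyp3a KO over WT, 197 and 114 in the DKO over WT, 91 and 79 in the DKO over the Cyp27a1 KO, and 108 and 84 in the DKO over the Cyp3a KO. With a mean CPM of at least 5, 98 were lower in the Cyp27a1 KO over WT, 132 lower in the Cyp3a KO over WT, and 454, 181 and 269 higher in the DKO over WT, over the Cyp27a1 KO and over the Cyp3a KO; fewer genes were counted there. Depth limits Serpina12 in the DKO most, with 34 counts.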

Other observations

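2 Serpina genes below the filter had few counts but uneven ones, and both were chosen after their values were seen. Serpina9 had 11 counts in the Cyp27a1 KO liver, 54 in the Cyp3a KO liver and 4 in the DKO, against 11 in WT. Serpina5, the protein C inhibitor gene, had 39 counts in the Cyp27a1 KO liver, 6 in the Cyp3a KO liver and 4 in the DKO, against 17 in WT. Serpina1f and Serpina16 had 0 counts in all 4 libraries.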
